A study of Homo sapiens with 6 samples.

Results

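The extended major histocompatibility complex (MHC) is the stretch of the short arm of chromosome 6 that holds the HLA genes and many other genes of the immune system. It was taken as 28.5 to 33.5 Mb of chromosome 6 in GRCh38, and its members are the open chromatin regions whose midpoint lies there. Overlapping peaks (by 1 bp or more) of the 6 samples were joined, which gave 423 regions in the MHC, 5288 on the whole of chromosome 6 and 102784 in the genome. A peak was present in all 6 samples for 280 of the 423 regions, 2370 of the 4865 in the rest of chromosome 6 and 50150 of the 102784 in the genome.

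The data are ATAC-seq peak lists of RKO, a colon cancer cell line. The cells were exposed either to aphidicolin (APH, 0.2 µM for 16 h, 3 samples) or to its solvent DMSO (3 samples, for which the labels give no time). Aphidicolin inhibits the replicative DNA polymerases, and at this low dose it slows replication forks, so the comparison asks whether mild replication stress is accompanied by a change in accessible chromatin. In this assay a transposase tags accessible DNA with adapters. Each peak carries 1 value, the average read coverage along it, called the signal here. No scaling factor had been applied to it, and since the total number of reads is unknown, any unequal depth would show in it. Between 64511 and 84510 peaks were listed per sample, with 69190 ± 6965 (SD, n = 3) for DMSO and 78146 ± 7337 (SD, n = 3) for APH. The samples come from independent experiments according to the study, and p-values measure the spread between these samples only.

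Class I molecules present peptides made inside the cell to cytotoxic T cells and are found on nearly all nucleated cells, whereas class II molecules (HLA-DR, HLA-DQ, HLA-DP) present ingested antigens and are mostly restricted to professional antigen-presenting cells. Peptides for class I come from the proteasome, whose interferon-inducible subunits PSMB8 and PSMB9 are encoded beside the transporter genes TAP1 and TAP2 within the class II part. NLRC5 directs transcription of class I genes and CIITA that of class II genes, through a promoter module of X and Y boxes bound by RFX, CREB/ATF family and NF-Y proteins. The class III part between them holds complement, tumour necrosis factor and many housekeeping genes, and the extended class I part holds clusters of tRNA genes and olfactory receptor genes.

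Promoters are shown for genes whose starts gave contrasting signal: the class I genes HLA-B, HLA-C and HLA-F, the pair TAP1 and PSMB9 that start from 1 open region, the class II genes HLA-DMB (open) and HLA-DQA1 (no region), and ABCF1, whose region had the smallest p in the MHC. RefSeq sequences of GRCh38.p14, 250 bases before to 50 after a start, were matched by symbol for 23 of the 25 listed HLA, MIC, TAP, TAPBP and PSMB8/9 genes, with HLA-E and HLA-DRA as the other members. HLA-B lies at chr6:31357130-31357429, HLA-C at chr6:31272043-31272342, TAP1 at chr6:32853655-32853954, HLA-DMB at chr6:32940979-32941278 (all on the minus strand), HLA-F at chr6:29723184-29723483, PSMB9 at chr6:32853942-32854241, HLA-DQA1 at chr6:32637156-32637455 and ABCF1 at chr6:30571192-30571491 (all on the plus strand). Capitals mark 5 motifs searched on both strands: CCAAT (core of the Y box), TGACG (core of the X2 box), a doubled GAAA with any 2 bases between the copies (core of the interferon-stimulated response element), GGGGATTCC (an NF-kappa-B site) and GGGCGG (GC box).
HLA-B: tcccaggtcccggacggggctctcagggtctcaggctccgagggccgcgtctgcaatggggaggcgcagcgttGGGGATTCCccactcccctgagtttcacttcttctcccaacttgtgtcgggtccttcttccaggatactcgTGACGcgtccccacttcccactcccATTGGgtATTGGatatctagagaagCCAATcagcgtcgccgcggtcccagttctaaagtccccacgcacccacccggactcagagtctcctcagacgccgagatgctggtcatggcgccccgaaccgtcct
HLA-C: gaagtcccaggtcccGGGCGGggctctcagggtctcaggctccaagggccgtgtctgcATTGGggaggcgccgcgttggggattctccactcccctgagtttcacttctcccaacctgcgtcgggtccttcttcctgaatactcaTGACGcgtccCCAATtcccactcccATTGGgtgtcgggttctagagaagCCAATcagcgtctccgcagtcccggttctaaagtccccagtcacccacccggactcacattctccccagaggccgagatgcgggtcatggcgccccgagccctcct
HLA-F: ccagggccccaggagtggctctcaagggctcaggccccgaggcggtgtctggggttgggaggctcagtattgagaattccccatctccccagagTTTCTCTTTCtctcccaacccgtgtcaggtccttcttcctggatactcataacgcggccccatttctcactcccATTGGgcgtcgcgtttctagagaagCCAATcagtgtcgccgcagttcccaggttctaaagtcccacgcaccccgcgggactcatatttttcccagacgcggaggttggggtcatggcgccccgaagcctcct
TAP1: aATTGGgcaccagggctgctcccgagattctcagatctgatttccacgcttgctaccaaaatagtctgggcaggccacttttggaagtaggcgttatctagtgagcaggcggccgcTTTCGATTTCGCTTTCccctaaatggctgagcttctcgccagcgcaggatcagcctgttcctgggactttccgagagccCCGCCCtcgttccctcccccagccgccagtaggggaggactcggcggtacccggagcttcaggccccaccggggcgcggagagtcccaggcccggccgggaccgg
PSMB9: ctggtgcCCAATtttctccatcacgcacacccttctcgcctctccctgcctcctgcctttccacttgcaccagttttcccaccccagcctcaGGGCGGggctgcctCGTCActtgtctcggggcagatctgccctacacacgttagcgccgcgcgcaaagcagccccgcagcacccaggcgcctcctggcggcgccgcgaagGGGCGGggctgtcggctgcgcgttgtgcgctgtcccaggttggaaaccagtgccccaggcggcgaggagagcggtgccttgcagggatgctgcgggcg
HLA-DMB: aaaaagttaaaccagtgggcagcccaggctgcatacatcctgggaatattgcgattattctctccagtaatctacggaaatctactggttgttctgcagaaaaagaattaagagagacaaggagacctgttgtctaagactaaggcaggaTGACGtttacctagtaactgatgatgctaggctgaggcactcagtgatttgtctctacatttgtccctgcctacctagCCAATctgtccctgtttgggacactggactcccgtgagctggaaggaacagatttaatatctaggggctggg
HLA-DQA1: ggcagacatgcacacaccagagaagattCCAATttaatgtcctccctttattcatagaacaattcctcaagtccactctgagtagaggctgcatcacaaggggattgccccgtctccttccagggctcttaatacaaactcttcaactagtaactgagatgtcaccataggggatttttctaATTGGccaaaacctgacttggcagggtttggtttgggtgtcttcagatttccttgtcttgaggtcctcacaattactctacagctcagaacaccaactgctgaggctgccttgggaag
ABCF1: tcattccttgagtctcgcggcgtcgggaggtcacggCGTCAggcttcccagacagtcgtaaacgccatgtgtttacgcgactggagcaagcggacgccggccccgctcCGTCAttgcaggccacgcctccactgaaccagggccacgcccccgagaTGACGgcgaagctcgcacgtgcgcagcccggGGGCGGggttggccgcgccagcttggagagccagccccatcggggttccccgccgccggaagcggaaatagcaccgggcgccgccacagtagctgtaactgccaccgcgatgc

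Of all 35116 promoters in the table, 34.6% held CCAAT, 24.6% TGACG, 3.57% the doubled GAAA, 0.285% GGGGATTCC and 45.0% GGGCGG. Among the 271 promoters in the MHC the shares were 40.6%, 22.5%, 7.75%, 0.738% and 45.8%. Some matches overlapped another of these motifs, in 10 of the 100 promoters with GGGGATTCC and in 0.797% to 1.65% of those with each of the others, but in none of the 8 promoters shown. The HLA-B promoter held CCAAT at 3 places and TGACG and GGGGATTCC at 1 place each. The HLA-C promoter held CCAAT at 4 places and TGACG and GGGCGG at 1 place each, and aligned with that of HLA-B it had the same base at 270 of 305 positions. CCAAT was present in 11 of 12 class II chain and loading promoters with a sequence and TGACG in 5, while the doubled GAAA was present in none of these 12 and in 3 of 5 peptide supply promoters (TAP1, TAP2 and TAPBP). The matches in TAP1 are 2 overlapping ones. A match is a description of the letters and no evidence of binding.

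The MHC was densely open. It held 84.6 regions per Mb, against 29.4 in the rest of chromosome 6. Its regions were also more often present in every sample, 66.2% against 48.7%, and wider, with a median of 401 bp against 351 bp. Peaks found in only 1 sample made up 9.93% of the MHC regions and 19.3% of those in the rest of chromosome 6. A peak in all 3 APH samples and in no DMSO sample was found at 0 of 423 MHC regions. It was found at 62 of the 4865 regions in the rest of chromosome 6 (1.27%) and at 1.11% of all regions. Peaks in all 3 DMSO samples and no APH sample were found at 0 MHC regions, 4 in the rest of chromosome 6 (0.08%) and 0.18% of all. These shares are low, and MHC regions were more often present in every sample, so the 0 is not read as a trait of the MHC.

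Parts were bounded by MOG, MICB, HLA-DRA and COL11A2. The extended class I part (28.5 to 29.67 Mb) had 86 regions, the class I part (to 31.51 Mb) 159, the class III part (to 32.44 Mb) 92, the class II part (to 33.16 Mb) 41 and the extended class II part (to 33.5 Mb) 45. Density was highest in the extended class II part, at 133 regions per Mb, and lowest in the class II part, at 56.7. Over regions with a peak in all 6 samples, called shared regions below, the median signal was 95.3, 110, 120, 50.02 and 149 in that order, against 64.1 in the rest of chromosome 6. The class II part was thus the only one of the 5 with a median below the rest of the chromosome, in each of the 6 samples.

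**Figure D1:**
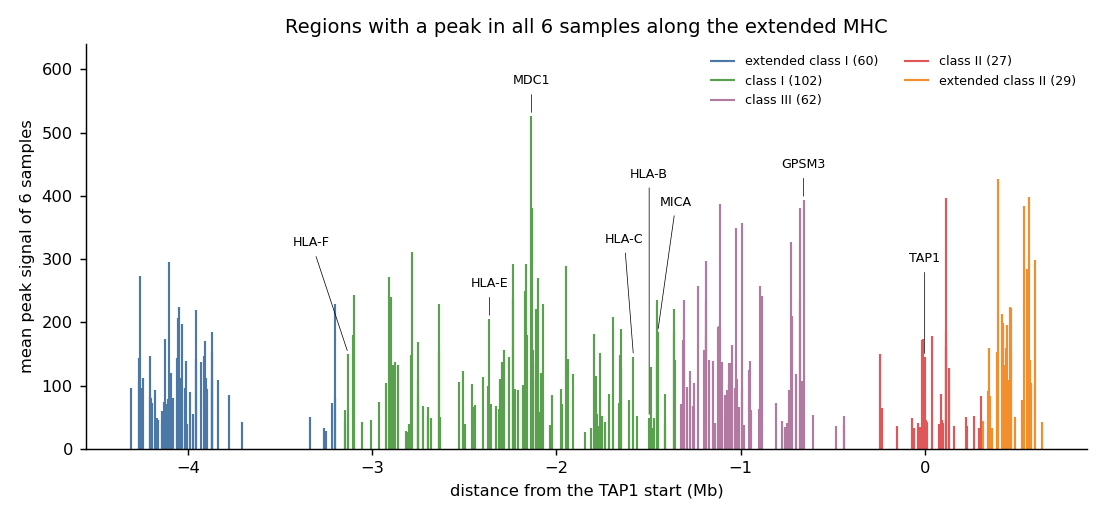
Mean signal over 6 samples of the 280 shared regions, against the distance from the TAP1 start in Mb, with 1 vertical line per region coloured by part. Long stretches without a line lie in the extended class I, class III and class II parts, and the tallest line, at MDC1, reaches 526.

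The extended class I part was open at tRNA genes and closed at most protein-coding ones. Of its 60 shared regions, 40 lay within 1 kb of a tRNA gene and 2 within 1 kb of a protein-coding start. Of the 40 tRNA genes in the MHC, 34 (85.0%) had a shared region within 1 kb, against 64.1% of 443 in the genome. Only 2 of its 23 protein-coding genes had a shared region at the start, one of them at TRIM27, a ubiquitin ligase gene. None of the 14 olfactory receptor genes of the MHC had a region at the start in any sample. This was near the share in the genome, where 4.90% of 388 such genes had one. Of the 14, 7 lie in the longest stretch of the MHC without a peak, 216 kb. These 2 gene classes were chosen after the peaks were seen. tRNA genes exist in near-identical copies, and since only uniquely mapped reads were kept, their signal is uncertain.

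**Figure D2:**
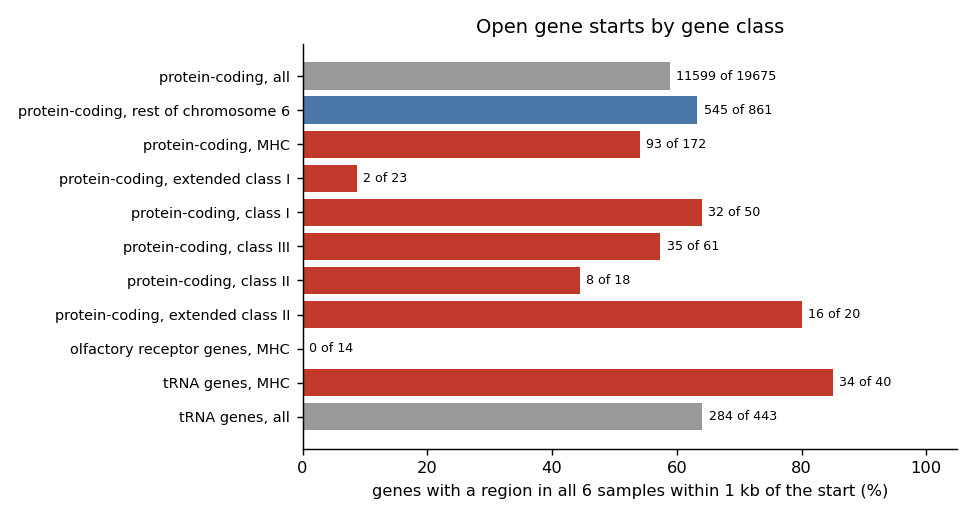
Percentage of genes with a shared region within 1 kb of a start, by gene class, with the number of genes beside each bar. Olfactory receptor genes of the MHC stand at 0 of 14 (2.06% in the genome) and its tRNA genes at 34 of 40 (64.1% in the genome).

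The 5 listed class I heavy chain genes had a region at the start, 4 of them in every sample. HLA-C, a classical class I gene, had 146, 155 and 156 in DMSO and 125, 153 and 139 in APH. HLA-B was much weaker, with 41.2, 37.5 and 42.9 in DMSO and 63.1, 57.6 and 50.2 in APH. Among the 13 shared regions at starts of the listed HLA, MIC, TAP, TAPBP and PSMB8/9 genes, HLA-B was the only region where all APH values lay above all DMSO values. This order was found at 4.21% of all shared regions of the genome. HLA-E, which displays leader peptides of other class I chains to natural killer cells, had 170, 287 and 184 in DMSO and 185, 230 and 177 in APH. HLA-F, a nonclassical gene, had 110, 186 and 132 in DMSO and 160, 161 and 152 in APH. DMSO replicate 2 was the highest of the 6 samples at HLA-E and HLA-F, and the groups overlapped at these starts and at HLA-C. At HLA-G, known from the placenta, a peak of 22.3 was listed in APH replicate 2 only. HLA genes resemble each other and vary between people, so reads that match several copies or differ from the reference were lost to an unknown extent. The promoters of HLA-B and HLA-C share runs of up to 25 bases.

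Class II starts were mostly closed. Of the 9 class II chain genes, HLA-DPB1 had a region in all 6 samples and HLA-DRB1 in 4, while no peak lay within 1 kb of the starts of HLA-DRA, HLA-DRB5, HLA-DQA1, HLA-DQB1, HLA-DQA2, HLA-DQB2 and HLA-DPA1. HLA-DPB1 had 54.2, 60.6 and 39.4 in DMSO and 54.6, 61.5 and 29.9 in APH, and replicate 3 was the lowest of both groups. HLA-DRB1, one of several similar DRB genes, had 25.9 in DMSO replicate 2 and 23.1, 26.1 and 22.1 in APH. The genes that load class II molecules differed among themselves. HLA-DMB, whose product exchanges peptides on class II molecules together with that of HLA-DMA, had 71.7, 91.7 and 75 in DMSO and 106, 100 and 73.3 in APH. HLA-DMA had 35.4, 49.1 and 27.2 in DMSO and 44.9, 48.0 and 37.8 in APH. Both pairs of groups overlapped. Of the modulators of this exchange, HLA-DOA had a peak in 1 sample and HLA-DOB in none. A stretch of 112 kb around HLA-DRB5 and one of 85.0 kb with HLA-DQA2 and HLA-DQB2 held no peak, as did one of 100 kb without protein-coding starts in the class III part.

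The genes of the peptide supply within the same part were open. TAP1 and PSMB9, whose starts lie 488 bp apart in opposite directions, shared 1 region with 176, 154 and 167 in DMSO and 113, 119 and 142 in APH. All 3 APH values were below all 3 DMSO values. This order held at 2 of the 13 shared regions of the listed genes (TAP1/PSMB9 and MICA), against 38.3% of regions at protein-coding starts of the genome. TAP2, the partner of TAP1 in the peptide transporter, had 168, 205 and 178 in DMSO and 169, 161 and 156 in APH, and PSMB8 had 165, 199 and 179 in DMSO and 170, 178 and 152 in APH. TAPBP, which encodes the chaperone tapasin that tethers class I molecules to the transporter and lies in the extended class II part, had 112, 112 and 112 in DMSO and 99.9, 114 and 101 in APH. These 3 starts overlapped between groups. MICA and MICB encode stress ligands of the receptor NKG2D on natural killer and T cells. MICA had 200, 224 and 201 in DMSO and 151, 161 and 171 in APH, again with every APH value below every DMSO value. MICB had 134, 150 and 135 in DMSO and 138, 150 and 138 in APH, which overlapped.

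**Figure D3:**
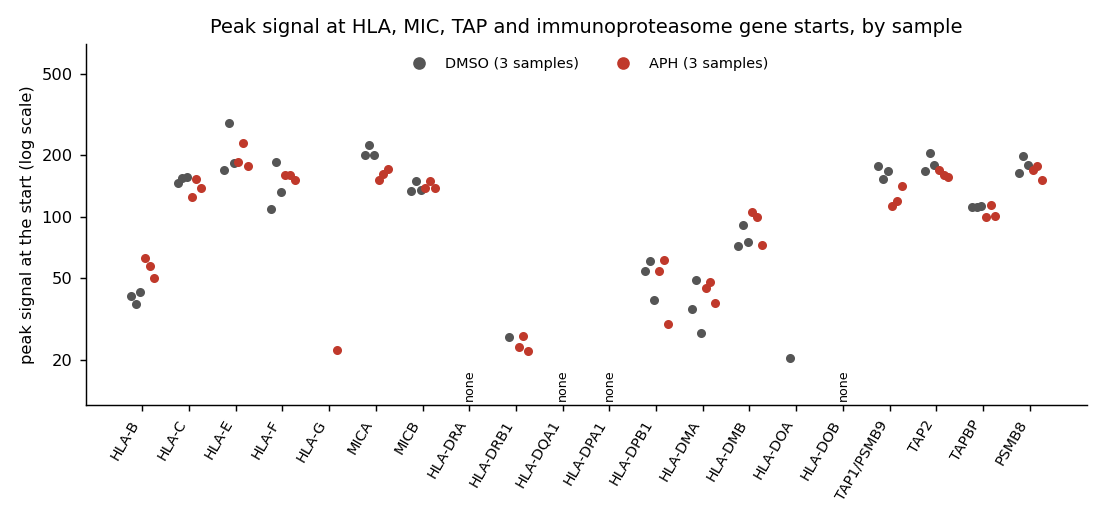
Signal at the start of HLA, MIC, TAP, TAPBP and PSMB8/9 genes in each sample, on a log axis, with DMSO in grey and APH in red; none marks starts without a peak in any sample. HLA-B lies between 37.5 and 63.1 with all APH points above the DMSO points, and MICA and TAP1/PSMB9 show the opposite order.

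Limma was fitted on log2(signal + 1) over all 50150 shared regions. No region passed an adjusted p of 0.05 (0%), so none of the 280 in the MHC did, which does not show that they are unchanged. With the replicate number as a block, 51 of the 280 passed (18.2%, against 13.2% of all), a setting described in the last section. Without the block, at an unadjusted p under 0.05, 6 MHC regions were higher in APH (2.14%, against 2.46% of all shared regions) and 46 were lower (16.4%, against 10.1% of all and 8.10% in the rest of chromosome 6). All APH values lay above all DMSO values at 9 MHC regions (3.21%, against 4.21% of all) and below them at 68 (24.3%, against 14.4% of all and 13.4% in the rest of chromosome 6). Lower signal in APH was thus more frequent in the MHC than in either background. With 1 sample left out, between 17 (without APH replicate 1) and 52 MHC regions were lower at this unadjusted threshold. Between 2 (0.68% to 0.71%, against 0.86% to 1.07% of all) and 14 (without DMSO replicate 2, 4.96%, against 7.67% of all) were higher. Of all shared regions 4.11% were lower without APH replicate 1 (6.03% in the MHC) and 9.48% without DMSO replicate 1 (17.7% in the MHC). The share was 6.29% without DMSO replicate 3 (10.0% in the MHC) and 8.75% without APH replicate 2 (14.8% in the MHC). It was 9.38% without DMSO replicate 2 (10.3% in the MHC) and 9.75% without APH replicate 3 (10.6% in the MHC). The margin of the MHC over the genome was thus small without either of the last 2 samples. The median log2 fold change was -0.14 over the 280 MHC regions, -0.03 over the 2370 of the rest of chromosome 6 and -0.06 over all. With quantile normalization these medians were -0.03, 0.003 and -0.01, and 23 MHC regions were lower at an unadjusted p under 0.05 (8.21%, against 4.59% of all) and 18 higher (6.43%, against 5.90% of all).

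These medians were also compared at equal signal strength, a split made after the data were seen. All shared regions were split into 4 classes of equal size by their mean. The strongest class held 43.9% of the MHC regions and 22.95% of those in the rest of chromosome 6, and the weakest class 12.9% and 27.9%. In the strongest class the median log2 fold change was -0.22 in the MHC, -0.21 in the rest of chromosome 6 and -0.21 in the genome. In the weakest class it was 0.01, 0.10 and 0.08, and in the classes between, -0.003 and -0.11 in the MHC against 0.03 and -0.08 in the rest of chromosome 6. The medians also differed by place. Regions with a gene start within 1 kb, tRNA genes aside, had medians of -0.22, -0.21 and -0.23, and the others -0.08, 0.04 and 0.01. At protein-coding starts 36 of 88 MHC regions (40.9%) had all APH values below all DMSO values, against 35.5% in the rest of chromosome 6 and 38.3% in the genome. At the tRNA genes of the MHC this was so for 16 of 40 regions (40.0%), against 54.7% of 265 in the genome.

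**Figure D4:**
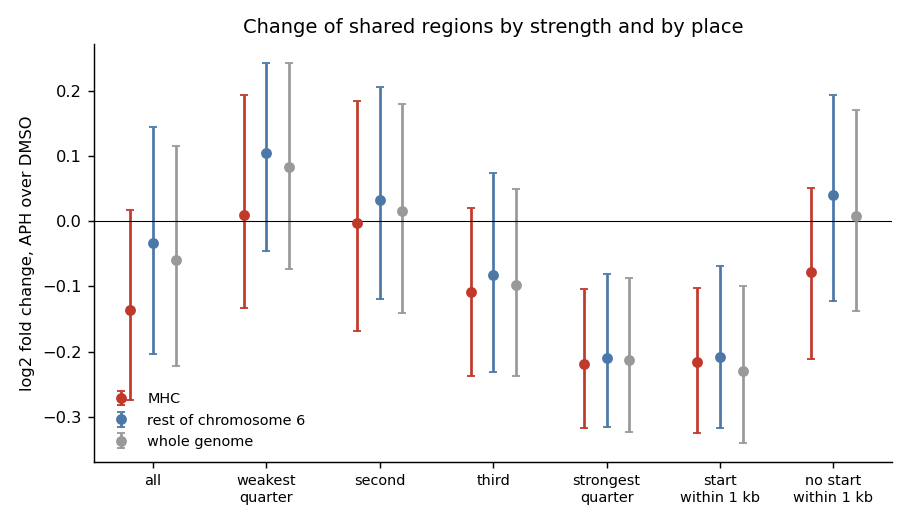
Median log2 fold change, APH over DMSO, of shared regions in the MHC, the rest of chromosome 6 and the genome, for all regions, for 4 classes of signal strength and by distance to a gene start; bars span the middle 50% of regions. In the strongest class the medians are -0.22, -0.21 and -0.21.

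Class I starts differed in direction. The 4 shared starts of listed class I genes had a median log2 fold change of 0.05, against -0.25 over the 12472 regions at protein-coding starts of the genome. That median was 0.24 with quantile normalization, where all 4 were higher, -0.02 when APH replicate 2 was left out and 0.27 when DMSO replicate 2 was, so its sign is not settled. HLA-B stood at 0.48 (95% interval 0.04 to 0.92, adjusted p = 0.36), HLA-F at 0.18, HLA-E at -0.08 and HLA-C at -0.14. The comparison with protein-coding starts was not matched for strength. HLA-B had a mean signal of 48.7, against a median of 132 at protein-coding starts of the genome. The median log2 fold change was 0.08 in the weakest strength class of the genome and 0.02 in the next. HLA-C and HLA-E turned positive with quantile normalization, and HLA-E also when the highest peak stood for a region, while HLA-B was between 0.40 and 0.56 with each replicate left out. The 4 regions of TAP1/PSMB9, TAP2, TAPBP and PSMB8 had a median of -0.15 (0.02 with quantile normalization, -0.24 without DMSO replicate 1 and -0.10 without DMSO replicate 2). TAP1/PSMB9 stood at -0.42 (95% interval -0.72 to -0.11, adjusted p = 0.30), TAP2 at -0.18, PSMB8 at -0.12 and TAPBP at -0.10, and the last 3 turned positive with quantile normalization. MICA stood at -0.37 (95% interval -0.64 to -0.09, adjusted p = 0.30) and MICB at 0.03. With quantile normalization MICA was -0.17, TAP1/PSMB9 -0.25 and MICB 0.19, so the size of each depends on the scaling. HLA-DMA at 0.26 and HLA-DMB at 0.21 were positive under every scaling, with intervals that include 0, and HLA-DPB1 stood at -0.12. Several of these values rest on single samples: with 1 sample left out HLA-F ranged from 0.0088 (without DMSO replicate 1) to 0.38 (without DMSO replicate 2), HLA-DMA from 0.06 to 0.47, HLA-DMB from 0.11 to 0.38, HLA-C from -0.21 to -0.06, TAP2 from -0.29 to -0.10 and PSMB8 from -0.18 to -0.05.

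Landmark starts had mostly lower signal in APH, as had protein-coding starts in general, of which 89.4% in the genome and 87.5% in the MHC were lower. Of 45 landmark and housekeeping genes of the MHC, 28 had a shared region at the start, in 27 regions, of which 25 were lower in APH and 2 higher (DDR1 and PBX2). Their median log2 fold change was -0.31, against -0.25 at all protein-coding starts. With quantile normalization 22 were lower and 5 higher, and the median was -0.08. At 13 of the 27 regions all APH values lay below all DMSO values, against 38.3% of all protein-coding starts. ABCF1, which encodes a factor of translation initiation, had 183, 183 and 207 in DMSO and 125, 107 and 133 in APH (log2 fold change -0.65, SE 0.14, adjusted p = 0.29). Its groups were far apart, with the highest APH value below the lowest DMSO value. The region shared by TCF19 and CCHCR1 had 221, 310 and 233 in DMSO and 154, 154 and 175 in APH (log2 fold change -0.65, SE 0.15, adjusted p = 0.29). BRD2, a chromatin reader, had 202, 240 and 212 in DMSO and 136, 159 and 169 in APH at its most upstream start, and another BRD2 region gave 407 ± 26 (SD, n = 3) in DMSO and 386 ± 34 (SD, n = 3) in APH, which overlapped. The regions at PRRC2A and FKBPL complete the 5 of smallest p that were lower in APH, with log2 fold changes of -0.48 and -0.48. With quantile normalization these 2 were -0.26 and -0.27, and the most upstream BRD2 start went from -0.50 to -0.29. ABCF1 was then -0.48 and TCF19/CCHCR1 -0.43.

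Of the 45 landmark genes 29 had a region at the start, and no peak lay within 1 kb of the start of the others. Those without a peak include TNF, LTA and LTB, the cytokine genes of the class III part, as well as MOG (myelin), GABBR1 (a GABA receptor subunit), POU5F1 (pluripotency), ZFP57, NOTCH4, BTNL2, AGER, COL11A2 and the complement gene CFB. The copies C4A and C4B and the gene CYP21A2 had none either, and HSPA1B had a region of 350 while the near-identical HSPA1A had none. For these duplicated genes a missing peak is uncertain, since reads that match both copies were not kept. The starts of the complement gene C2 and of EHMT2, a histone methyltransferase gene, share 1 region, at 144 ± 19 (SD, n = 3) in DMSO and 106 ± 12 (SD, n = 3) in APH. RING1 had a region in 5 samples.

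The strongest regions lay at gene starts. MDC1, a scaffold of the DNA damage response, had the highest mean of the MHC at 526, with 513, 704 and 572 in DMSO and 442, 513 and 414 in APH. Other strong regions lay at HCG25 (427), BRD2 (396) and GPSM3 (394). At HCG25 and GPSM3 all APH values were below all DMSO values, and at MDC1 as well, by less than 1 between the nearest samples. Of regions without a gene start within 1 kb, tRNA genes aside, the 5 strongest had means of 244 to 295. The strongest, 15645 bp from RPSAP2, and the next, 1798 bp from ZBED9-AS1, overlap tRNA genes of the extended class I part. The 5 regions of smallest p among those higher in APH were HLA-B and 4 regions away from gene starts. One 35648 bp from ZBTB9, near the outer end of the extended class II part, had 29.8, 28.3 and 24.3 in DMSO and 60.2, 66.3 and 44.8 in APH (log2 fold change 1.01, SE 0.22, adjusted p = 0.29). Every APH value there was above every DMSO value. Others lay 13638 bp from TNXB at 0.59, 12821 bp from ETF1P1 at 0.57 and 4085 bp from TUBB at 0.43 (log2 fold change), the last between 0.27 without DMSO replicate 3 and 0.60 without DMSO replicate 2.

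The MHC was then compared with the rest of chromosome 6 in each sample. It held 9.61%, 9.29% and 10.4% of the chromosome's peaks in DMSO and 8.86%, 8.82% and 9.38% in APH, with means of 9.76% ± 0.56 and 9.02% ± 0.31 (SD, n = 3 each, exact permutation p = 0.2, two-sided). The APH values were lower on average but overlapped with DMSO, and 3 against 3 cannot give a p below 0.1. The MHC had 349 ± 24 peaks under DMSO and 368 ± 29 under APH (SD, n = 3 each), while that of chromosome 6 was 3583 ± 396 and 4090 ± 456 (SD, n = 3 each). When an equal number of the strongest peaks was taken from each sample, the difference in share turned from -0.74 to 0.21 percentage points, and with 1 sample left out it ranged from -0.98 to -0.43. The share of the covered length was 11.1%, 10.5% and 11.5% in DMSO and 10.2%, 10.1% and 10.8% in APH (difference of means -0.68 percentage points, exact permutation p = 0.2), and the difference was 0.0011 with an equal number of peaks.

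Mean peak signal was lower in APH both inside and outside the MHC. Mean signal in the MHC was 116, 130 and 120 in DMSO and 103, 108 and 106 in APH, and in the rest of chromosome 6 it was 72.0, 78.6 and 77.0 against 63.8, 67.3 and 66.1. All APH values were below all DMSO values in both (exact permutation p = 0.1 each, the smallest possible). The log2 ratio of the 2 means was 0.68, 0.73 and 0.64 in DMSO and 0.69, 0.69 and 0.68 in APH, with a difference of 0.0014 (exact permutation p = 0.8). With an equal number of peaks the difference was -0.10 and all APH values lay below all DMSO values (exact permutation p = 0.1), so the ratio depends on which peaks are counted. Over shared regions, the median log2 signal of the MHC exceeded that of the rest by 0.77, 0.65 and 0.89 in DMSO and by 0.63, 0.62 and 0.77 in APH (difference of means -0.10, exact permutation p = 0.2), and the groups overlapped. With quantile normalization this difference was 0.0089, and with 1 sample left out it ranged from -0.17 to -0.05.

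**Figure D5:**
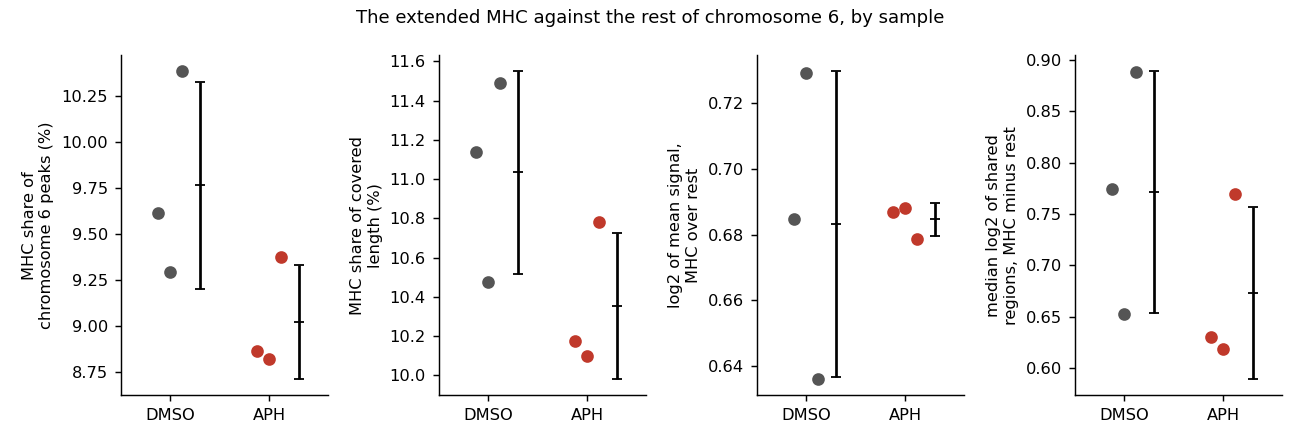
MHC share of chromosome 6 peaks and of covered length (both in percent), log2 ratio of mean signal and difference of median log2 signal between the MHC and the rest of chromosome 6, with 1 point per sample and bars for mean and SD (n = 3). The groups overlap in all 4 panels, and the axes do not start at 0.

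Among the parts, the extended class I part showed the clearest order for the share of peaks in the main setting. Its share of chromosome 6 peaks was 2.07%, 2.06% and 2.25% in DMSO and 1.90%, 1.81% and 2.04% in APH, with every APH value below every DMSO value (exact permutation p = 0.1, adjusted over 5 parts 0.25). With an equal number of peaks the difference of means went from -0.21 to 0.025 percentage points. With a stricter peak threshold the exact permutation p was 0.2 for this part and 0.1 for the class II part. The other 4 parts had differences of -0.11 to -0.18 percentage points, and their groups overlapped. Without DMSO replicate 3 the class I difference was -0.04 and that of class III -0.07, and without APH replicate 2 that of extended class II was -0.07. For the median of shared regions relative to the rest of chromosome 6, the differences were -0.21 in extended class I, -0.01 in class I, -0.19 in class III, -0.09 in class II and -0.15 in extended class II (log2, exact permutation p from 0.2 to 0.8). With 1 sample left out they ranged from -0.27 to -0.14 in extended class I, from -0.26 to -0.11 in class III and from -0.29 to -0.09 in extended class II. The class I difference changed sign when any of 3 samples was left out, and the class II difference without APH replicate 3.

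Tested in 5 windows of 1 Mb among 2538 windows of the genome, the share of peaks passed limma's adjusted p of 0.05 in 0 of 5, against 0.0394% of all windows. At an unadjusted p under 0.05 it was 1 of 5, against 10.8%. This was the window from 32.5 to 33.5 Mb, which spans most of class II and extended class II, with a log2 fold change of -0.15 (95% interval -0.30 to -0.01, adjusted p = 0.43). No MHC window had an unadjusted p under 0.05 with a stricter peak threshold, with an equal number of peaks or without any of 4 of the samples, while 2 had one without APH replicate 3 and 2 with the replicate number as a block. The window held 68, 76 and 68 peaks in DMSO and 73, 73 and 69 in APH. For mean peak signal, 0 of 5 windows passed the adjusted threshold (0% of 2595) and 0 of 5 an unadjusted p under 0.05 (12.4%), with log2 fold changes between -0.06 and 0.07. With an equal number of peaks it was 1 of 5 for signal at the unadjusted threshold.

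Partners of antigen presentation outside the MHC were mostly open, among them the RFX genes RFX5, RFXAP and RFXANK. B2M, the light chain of class I molecules, had 328, 485 and 363 in DMSO and 340, 379 and 323 in APH. NLRC5 had 115, 95.7 and 134 in DMSO and 92.7, 91.0 and 120 in APH, which overlapped, as did B2M. CIITA had no peak within 1 kb of its start, and neither had the class II genes CD74 (invariant chain) and CTSS (cathepsin S) or the lipid-presenting CD1D. ERAP2 had a peak in DMSO replicate 1 only, at 33.1. Of 26 such genes 21 had a shared region, all 21 lower in APH, against 89.4% of all protein-coding starts. With quantile normalization 19 were lower, without DMSO replicate 2 also 19, and with the highest peak 20. The median log2 fold change was -0.35 (-0.15 with quantile normalization), with adjusted p-values above 0.05 in the main setting. Their median signal was 165, against 132 at all protein-coding starts, so the 2 sets were not matched for strength. At 15 of the 21, among them RFX5, RFXAP, RFXANK, NFYA, NFYB, NFYC and IRF1, all APH values lay below all DMSO values, against 38.3% of all protein-coding starts. NFYA, a subunit of the Y box factor, had 271, 321 and 289 in DMSO and 210, 210 and 213 in APH (log2 fold change -0.47, SE 0.13, adjusted p = 0.29).

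Markers were checked at their starts. Of 10 markers of colon epithelium 5 had a region and 2 had one in all samples, CDX2 at 164 and EPCAM at 57.9. CDH1, KRT19, CDX1, VIL1 and LGALS4 had none. Of 7 markers of antigen-presenting cells ITGAX had a region in all samples (83.2) and CD14 a peak in 1. The 3 T cell genes, the leukocyte gene PTPRC and the endothelial gene CDH5 had none (PECAM1 had no start in the annotation), and 2 of 5 fibroblast genes, COL1A1 (68.7) and COL1A2 (82.2), had one in all samples. An open start is not a measure of expression.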

How the data were processed

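The input was 1 list of ATAC-seq peaks for each of 6 RKO samples. The authors deposited every peak with its signal, the average over it of coverage in 32-nt bins by alignments extended to 200 bp. Duplicates and reads without a unique match had been removed. The submitters' processing notes name BWA 0.7.12, MACS2 2.1.0 and hg38, and peaks were called per sample. Signal multiplied by the number of bins was whole, within the deposited decimals, for at least 99.99% of peaks under 1000 bp and 1000 in signal, so no scaling factor had been applied. Reads drawn to equal depth would also give whole numbers, and depth is unknown.

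Peaks overlapping by at least 1 bp were merged, a region's value being the length-weighted mean of its peaks. Genes came from RefSeq GRCh38.p14, with strand from GENCODE by symbol where no promoter was listed, and a start was matched to the nearest region within 1 kb, trying the most upstream start first. Shared regions (pseudocount 1) and 1 Mb windows (mean of at least 5 peaks for shares, at least 3 peaks in every sample for signal) were tested with limma with an intensity trend and Benjamini-Hochberg adjustment at 0.05 over the genome, and single values with a two-sided exact permutation test. Named were HLA, TAP, TAPBP, PSMB8/9 and MIC genes, a list of landmark genes, regions among the 5 strongest, the 5 of smallest p per direction and the 5 strongest without a start within 1 kb. Members and lists were chosen with earlier results of these data known. Alternatives covered the peak threshold, equal peak numbers, overlap, samples needed, region value, pseudocount, scaling, windows, bounds, a replicate block, reach and each replicate left out. Gene classes, strength classes and gaps were added after the data were seen. The limma fit was first run on simulated data with known changes. Software was limma 3.58.1 in R 4.3.3, and Python 3.11.15 (numpy 2.4.6, pandas 2.3.3, matplotlib 3.10.9). The genome sequence at hand is of another build, so GC content was not examined.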

Additional observations from a re-analysis of the deposited data

How the results depend on the processing

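No MHC region, window or gene start passed the threshold under any setting other than the replicate block. The labels number samples 1 to 3 in both groups, and the study describes 3 independent experiments. Deviations from the group means over shared regions correlated at -0.01, 0.48 and 0.52 for equal numbers. For unequal numbers they were -0.15 and 0.13 for DMSO replicate 1, 0.26 and -0.56 for DMSO replicate 2, and -0.28 and -0.40 for DMSO replicate 3. DMSO replicates 2 and 3 thus correlated best with the APH sample of their own number, and DMSO replicate 1 with APH replicate 3. The labels do not state that equal numbers are pairs, so the main fit has no block. Whether the samples are paired is not settled, and the number of calls depends on it. With the number as a block, limma called 51 of 280 MHC regions (18.2%, 5 higher and 46 lower in APH) against 6604 of 50150 in the genome (13.2%), and no window. It called 18 of 42 listed MHC starts, in 16 of 40 regions, and 13 of 21 starts outside, against 33.7% of regions at protein-coding starts of the genome and 36.4% of those in the MHC. The alternatives for the starts outside were added after the data were seen.

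With equal peak numbers, the difference in MHC share of chromosome 6 peaks was 0.21 percentage points, that in covered length 0.0011, that in log2 mean signal relative to the rest of chromosome 6 -0.10, and those in share of the extended class I, class I and class III parts 0.025, 0.094 and 0.12. The share differences of the class II and extended class II parts shrank to -0.014 and -0.012. The difference in log2 mean signal was -0.0059 with a stricter peak threshold and -0.0034 with 0.5 Mb taken off at each end. With the stricter threshold, the shared regions of class I and class II gave 0.0036 and 0.071. With quantile normalization, the shared regions of the MHC gave 0.0089, those of class I 0.10 and those of extended class II 0.0074, and HLA-C 0.036, HLA-E 0.14, TAP2 0.021, TAPBP 0.028 and PSMB8 0.078 (log2 fold change). HLA-E was 0.22 with the highest peak. The cause was not tested.

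Leaving out each replicate, the difference in log2 mean signal ranged from -0.022 to 0.024, that in class I shared regions from -0.11 to 0.021 and in class II from -0.16 to 0.030, and the log2 fold changes of HLA-E from -0.20 to 0.15, MICB from -0.013 to 0.078 and HLA-DPB1 from -0.32 to 0.19. The median log2 fold change of all shared regions turned from -0.06 to 0.04 without DMSO replicate 2 and to 0.02 without APH replicate 3, and that of MHC regions was -0.07 and -0.10. Library depth is not known, and duplicated genes are seen only through uniquely mapped reads.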
